A study of Mus musculus with 2 samples.

Results

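The genes described here are 112 noncoding RNAs of mouse macrophages that the annotation defines by their place against another gene. Of these, 90 carry the biotype antisense, 17 bidirectional promoter lncRNA, 3 sense intronic and 2 sense overlapping. They were chosen by level: every transcript of the gene had to carry one of these biotypes, and the gene had to reach a TPM of at least 0.5 in the gene tables of both libraries. TPM is a level within a library, corrected for transcript length and scaled to a fixed total. The 112 come from 3493 annotated genes of the same biotypes and from 55450 annotated genes in all, of which 18.7% passed the same minimum. Their levels chose them, so levels are given as a description and carry no test.

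Both libraries belong to 1 group: primary macrophages derived from bone marrow of C57BL/6J mice, with sex and age not collected. The cells received 100 ng/ml lipid A, the bacterial endotoxin component that TLR4 senses, for 12 h, spent 12 h without it, and received 100 ng/ml again for 75 min. For each library 1 µg of cytosolic total RNA was sequenced after removal of rRNA. The labels call the libraries biological replicates 1 and 2. Libraries without lipid A, with a single exposure or from the nucleus are not analysed here, so no value below says what lipid A changed.

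An antisense RNA is read from the strand opposite another gene and can share genomic bases with that gene's exons. A bidirectional promoter lncRNA starts close to the start of a neighbour and is read away from it, so that both begin in one promoter region. Such RNAs are known in many tissues as rare, often nuclear and often short-lived transcripts, and a few of them (Airn at Igf2r, for example) silence genes near them. Transcripts on opposite strands of one place have complementary sequences, so a measurement that does not keep the strand cannot assign a read from the shared bases to either gene.

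Annotated genes held 64187219 expected counts in replicate 1 and 49429864 in replicate 2, and the 112 members held 0.0634% and 0.0625% of them. The cell type on the label was checked against markers, of which 10 of 10 for macrophages were at 10 TPM or more, between 24.4 and 3115. Of 29 markers of other lineages, 23 stayed under 1 TPM in both libraries and 2 reached 10, Pf4 at 88.3 and 71.4 TPM and Cd4 at 16.7 and 14.1 TPM in replicates 1 and 2. Of the RNAs listed as a measure of nuclear RNA, those at the highest levels were higher in replicate 2. Malat1 stood at 132 TPM in replicate 1 and 384 in replicate 2, and Neat1 at 7.96 and 29.7. Gm42418 (22.8 and 36.8) and Firre (0.42 and 0.70), on the same list, were also higher in replicate 2. Xist (1.62 and 1.27) and Airn (0.84 and 0.63) were lower in replicate 2, and Kcnq1ot1, Meg3 and Tsix stood at 0.01 TPM or less. As ratios of TPM + 0.1, replicate 1 over replicate 2, Malat1 and Neat1 stood at 0.344 and 0.270. Xist and Airn stood nearer to equality, at 1.26 and 1.29. The part of these differences in the members' values was not tested.

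The members were scarce RNAs. Their median was 1.49 TPM in replicate 1 and 1.28 TPM in replicate 2 (1.38 ± 0.145, SD, n = 2). Over all 10383 annotated genes at the same minimum it was 6.50 and 5.95 TPM, over 104 lincRNA genes (noncoding genes that lie between other genes) 1.65 and 1.36 TPM, and over 9663 protein-coding genes 6.92 and 6.28 TPM. Only 6 of the 112 reached 10 TPM in both libraries, and 64 reached 1 TPM. TPM depends on what else is in the total, of which these protein-coding genes held 29.9% in replicate 1 and 26.2% in replicate 2. The median member rested on 141 expected counts in replicate 1 and 101 in replicate 2, and the least on 6. The 112 lay on 19 chromosomes, with 1 on X.

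Detection differed between biotypes. The minimum was passed by 8.99% of bidirectional promoter lncRNA genes, 6.67% of sense overlapping, 3.06% of antisense and 0.917% of sense intronic genes. The members also differed from the 3381 genes of the same biotypes under the minimum in features the level did not enter. A single annotated transcript was recorded for 63 of the 112 (56.3%) and for 78.0% of the rest, and 40.2% of members against 23.9% of the rest overlapped their partner at the 5′ ends or diverged from it. No test was made of these shares, since detection itself chose the members.

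The members highest in TPM formed an unusual group, because many lie wholly on the exons of a messenger RNA. Gm26716, first by level, had 91.9 TPM in replicate 1 and 119 TPM in replicate 2 (106 ± 19.4, SD, n = 2), with 2025 and 2063 expected counts. It lies on the minus strand of chromosome 4 from 130824394 to 130826313 (mm10), and all 415 of its exon bases fall in the 3′ untranslated region of Sdc3, a cell-surface heparan sulfate proteoglycan read from the other strand. Sdc3 itself had 161 and 203 TPM. Both values for Gm26716 were thus below those of Sdc3 by a like margin, -0.81 and -0.76 on the log2(TPM + 0.1) scale.

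To show what sharing an exon means for a read, 30 bases from the middle of the Gm26716 transcript (bases 193 to 222 of its 415) are printed with the same place in the longest Sdc3 transcript, where their reverse complement begins at base 4746 of 4973. Both come from the GENCODE M21 transcripts (GRCm38), 5′ to 3′. A fragment from either strand of this place matches both genes unless its strand is known.
Gm26716: tttaagttttggccatgaactcaggacagg
Sdc3: cctgtcctgagttcatggccaaaacttaaa

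Gm11175, at 19.2 TPM in replicate 1 and 8.06 TPM in replicate 2, shows the same within a coding region. It lies on the minus strand of chromosome 8 from 70699162 to 70700080, and 877 of its 877 exon bases are coding bases of Jund, which encodes a subunit of the transcription factor AP-1. The whole of its leading transcript was found, reversed and complemented, inside the Jund transcript, and Jund had 44.0 and 38.1 TPM. Bases 257 to 286 of the 543 in that transcript and their match from base 847 of 1668 in the Jund transcript are printed from the same source.
Gm11175: tcgatgggcgacagcggagggctgtcgccg
Jund: cggcgacagccctccgctgtcgcccatcga

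The other members of this kind among those highest in TPM were Gm37401, Gm15655, Gm17122, Gm20463, Gm44709, Gm20659 and Gm17139. Gm37401 had 43.7 and 48.6 TPM in replicates 1 and 2, and 324 of its 347 exon bases lie in the 3′ untranslated region of Rhoa, a small GTPase of the cytoskeleton, which had 99.6 and 86.6 TPM. Gm15655 had 38.5 and 34.3 TPM and lies on untranslated bases of Maf, a transcription factor of macrophages at 56.0 and 60.7 TPM. These were again below their partners in both libraries. Gm17122, on the 3′ untranslated region of Coro1c, an actin-binding coronin at 47.4 and 45.1 TPM, had 16.6 and 7.25 TPM. Gm20463, on that of Rnf5, a ubiquitin ligase at 10.1 and 9.22 TPM, had 13.1 and 5.49 TPM, so it was above Rnf5 in replicate 1 and below it in replicate 2. Gm44709 had 8.52 and 8.90 TPM against 18.2 and 17.2 TPM of Supt5, a transcription elongation factor. Gm20659 (Dusp3, a phosphatase) and Gm17139 (Arel1, a ubiquitin ligase) had 8.47 and 5.67, and 6.37 and 7.27 TPM, each below its partner in both libraries.

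In all, 20 members had at least 90% of their exon bases in exons of another annotated gene, a limit chosen after the values were seen; 63 shared some bases and 29 shared none. The 20 made up 17.9% of members, against 3.28% of the genes of the same biotypes under the minimum. They held 7 of the first 10 places by level and 9 of the first 20, and their median was 3.48 TPM, against 1.40 TPM for members that shared in part and 1.12 TPM for members that shared nothing. In expected counts, members that shared in part had medians of 165 in replicate 1 and 117 in replicate 2. Members that shared nothing had 90 and 61. The 20 had 146 and 101, so their lead over members that shared in part was in TPM alone. Of the 19 that have a partner gene, 16 had more than 50% of their exon bases in untranslated regions of the partner, 15 of them in the 3′ untranslated region alone, and 3 had more than 50% in coding bases: Gm11175, Gm49482 (opposite Gpr84) and Gm27232 (opposite Rfx7), the last chosen after their values were seen. None of the 19 exceeded its partner in both libraries.

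**Figure D1:**
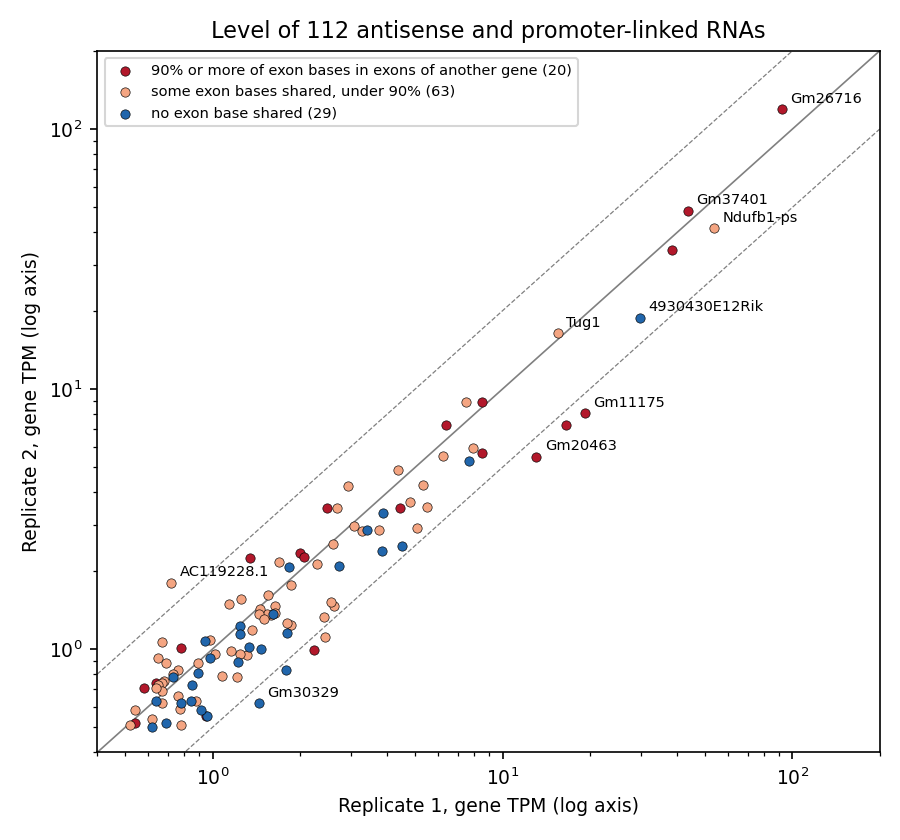
Gene TPM of the 112 members in replicate 1 (horizontal, log axis) and replicate 2 (vertical, log axis), with each point a gene, coloured by the share of its exon bases in exons of another gene; the solid line is equality and the dashed lines a ratio of 2. Members with 90% or more shared bases hold 7 of the first 10 places by level, and most members of each kind lie between the dashed lines.

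The deposited tables hold a direct measure of how firmly counts were assigned: a posterior standard deviation of each expected count. It was above 0 in both libraries for 61 of the 112 members, against 33.2% of the 10383 genes at the same minimum. By sharing, it was above 0 for 20 of the 20 members with 90% or more shared bases, for 41 of the 63 that shared in part and for 0 of the 29 that shared none. For Gm11175 it was 38.7 counts in replicate 1 and 32.8 in replicate 2, beside expected counts of 694 and 233. Tug1, by contrast, had standard deviations of 4.43 and 3.85 beside 6821 and 5737 counts.

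Sharing with the opposite strand alone went with the same uncertainty. Of 76 members whose shared bases all lie on the other strand, 56 had a standard deviation above 0 in both libraries. The same was true of 60.1% of 2874 other annotated genes that share bases only with the other strand, and of 14.8% of 6389 that share none. Whether the libraries keep the strand of the RNA is not stated in the sources used here, and the deposited text lists signal tracks without a track per strand.

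The same libraries were also quantified from the reads directly, and for members on the exons of another gene that table mostly gave far lower levels. Both tables are TPM, and over all genes at the minimum the alignment-based value was 1.67 times the read-based one in replicate 1 and 2.18 times in replicate 2 (medians), so members were read against that median. Gm26716, with 91.9 and 119 TPM from the alignment, had 0 and 0.0711 TPM in the read-based table. Its partner Sdc3 kept 97.4 and 87.2 TPM there. Gm17122 and Gm44709 were at 0 in both libraries, and Gm11175 had 0.0510 TPM in replicate 1 and 0 in replicate 2.

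In total 14 of the 112 members (12.5%) were at least 2-fold above the median ratio of the tables in both libraries. The share was 2.72% of all genes at the minimum and 6.73% of the 104 lincRNA genes. All 14 belong to the 20 members with 90% or more shared bases. The read-based table put 8 members at 0 in both libraries: Gm17122, Gm44709, Gm44170, Gm37335, Gm43118, Gm49482, Gm42846 and Gm12744. These are part of the 14 and so also among the 20, and the share of all genes at 0 there was not counted. Of the 20, Gm15655 on Maf had 23.4 and 14.4 TPM in the read-based table, within 2-fold of the median ratio in both libraries. Gm37401 on Rhoa had 11.0 and 7.48 TPM there. The 2 tables therefore do not give one level for most RNAs of this kind, and which is nearer to the cells was not tested.

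Another 10 members (8.93%) were at least 2-fold below the median ratio in both libraries, beside 0.674% of all genes and 7.69% of the 104 lincRNA genes. Of these 10 members, 0 had 90% or more shared bases. The most abundant was 4930430E12Rik, on chromosome 4, which has no partner and shares no exon base with another gene. It had 29.9 TPM in replicate 1 and 18.8 TPM in replicate 2 in the gene table, against 56.5 and 26.0 TPM in the read-based table. A530040E14Rik had 6.24 and 5.54 TPM against 12.3 and 7.20, and Gm37787 had 4.37 and 4.88 TPM against 11.3 and 8.37. The farthest was Gm15726, the member on X, with 0.88 and 0.63 TPM in the gene table against 6.91 and 5.62 TPM in the read-based one.

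**Figure D2:**
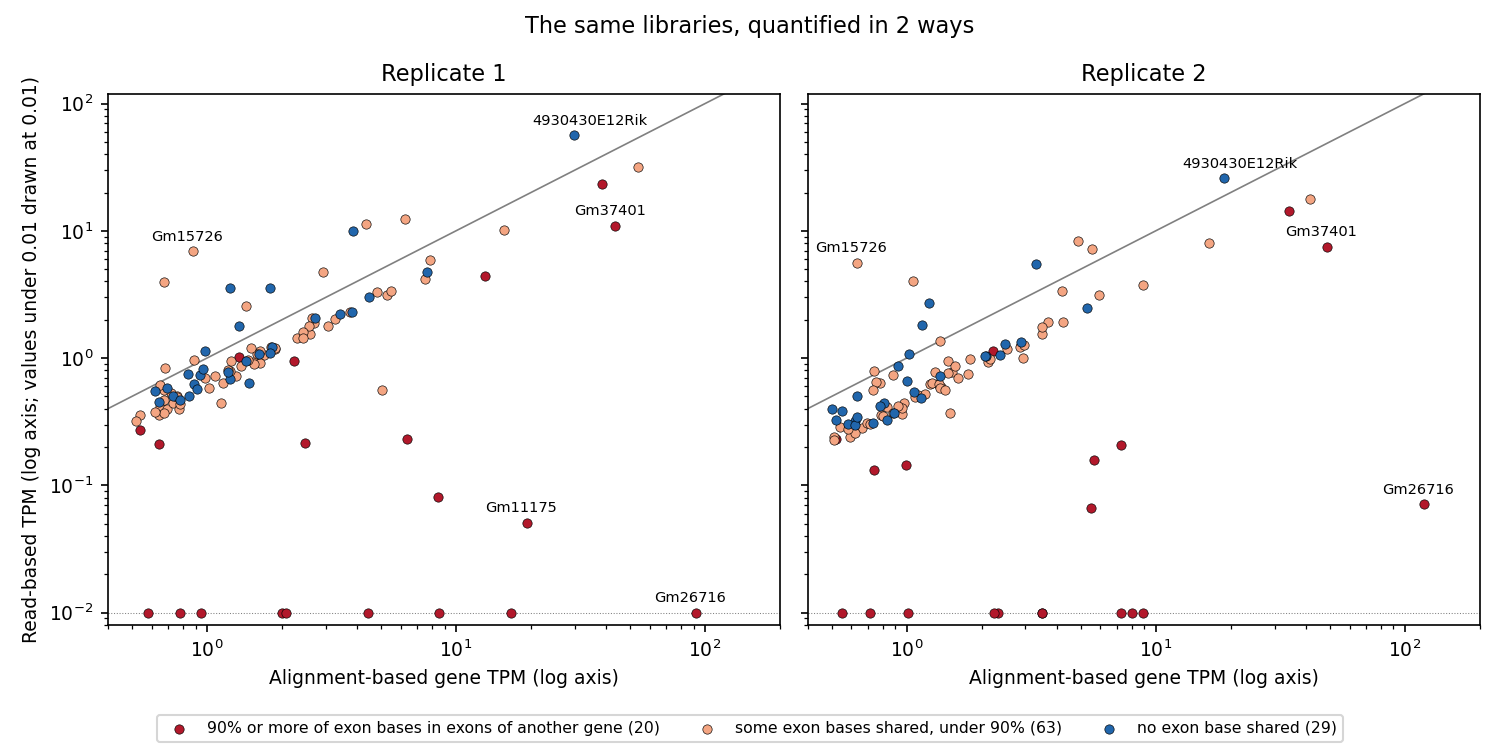
Alignment-based gene TPM (horizontal, log axis) against read-based TPM (vertical, log axis) of the 112 members, replicate 1 left and replicate 2 right, with values under 0.01 drawn at 0.01; colours give the share of exon bases in exons of another gene and the line is equality. The 8 members at 0 in both read-based tables all have 90% or more shared bases, while most members with no shared base lie in a band near the line.

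Other abundant members lie mostly on bases of their own. Ndufb1-ps, whose symbol marks a pseudogene of a subunit of mitochondrial complex I, is the most abundant bidirectional promoter lncRNA. It had 53.8 TPM in replicate 1 and 41.5 TPM in replicate 2 (47.6 ± 8.66, SD, n = 2), with 2888 and 1760 expected counts, and 12.7% of its exon bases are shared. It exceeded Cpsf2, a subunit of the complex that cleaves the 3′ ends of messenger RNAs, at 8.60 and 8.53 TPM. The read-based table gave it 31.6 and 17.8 TPM, so the gene table was above the median ratio of the tables by 0.02 and 0.09 on the log2 scale. The posterior standard deviation of its count was 0 in replicate 1 and 0.68 in replicate 2. A pseudogene can share sequence with a parent elsewhere in the genome, and whether Ndufb1-ps does was not tested.

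Tug1, a long noncoding RNA found in nucleus and cytoplasm of many cells, had 15.5 and 16.4 TPM in replicates 1 and 2 (16.0 ± 0.651, SD, n = 2), and with 6821 and 5737 counts it is the member measured with the most reads. It faces Morc2a, a chromatin ATPase at 3.42 and 4.24 TPM, and exceeded it in both libraries. Tug1 has 8 annotated transcripts, and its leading one was Tug1-202 with 29.8% of the gene's TPM in replicate 1 and Tug1-205 with 29.8% in replicate 2. Of the 49 members with several transcripts, 44 had the same leading transcript in both libraries, and the leading transcript of 21 of the 112 members has a single exon. Brip1os, at 7.49 and 8.92 TPM, starts 177 bases from Brip1, a DNA helicase of repair, and exceeded it, since Brip1 had 0.35 and 0.34 TPM. Sp3os, at 5.49 and 3.51 TPM, was by contrast below Sp3, a zinc finger transcription factor at 15.2 and 13.5 TPM. Gm26782, at 4.81 and 3.68 TPM, overlaps the start of Tep1, a component of vault particles at 28.5 and 34.7 TPM, and 4930455G09Rik, at 7.64 and 5.29 TPM, has no partner.

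A symbol ending in os, for opposite strand, names 13 members after a neighbour. Of these 10 were below the gene they are named for in both libraries and 3 above it (Brip1os, Plxna4os1 and Mypopos, the last pair chosen after their values were seen). In the gene tables the widest gap among the 10 was at Adap2os, with 0.67 TPM in replicate 1 and 1.06 TPM in replicate 2. Adap2, a GTPase-activating protein of small Arf GTPases, had 39.4 and 39.7 TPM. Rab10os, at 7.89 and 5.91 TPM, stood against 56.7 and 67.0 TPM of Rab10, a GTPase of vesicle transport. In the read-based table Adap2os had 3.95 and 4.03 TPM, against 29.5 and 22.7 TPM of Adap2. Dnmt3aos was farther below Dnmt3a there, with 2.07 and 0.942 TPM against 29.8 and 14.0 TPM. These are levels in the same libraries and show no relation between the genes of a pair.

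A partner gene could be assigned to 108 members: the gene overlapping on the other strand, else one starting within 1000 bases on the other strand, else, for sense RNAs, the gene they overlap on their own strand. The partner was protein-coding for 106, and Kdm7a is the partner of both Gm49041 and 4930599N23Rik. In both libraries 81 members were below their partner and 25 above it, and 2 changed sides. The median difference, member minus partner, was -2.52 in replicate 1 and -2.78 in replicate 2 on the log2(TPM + 0.1) scale (-2.65 ± 0.18, SD, n = 2). Since a member enters from 0.5 TPM and a partner from any level, the difference depends on the rule.

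The partners themselves, which the rule did not use, were mostly expressed. Counted per member, 90 of 108 partners (83.3%) reached 0.5 TPM in both libraries, and their median was 10.8 TPM in replicate 1 and 11.3 in replicate 2. Among 3264 genes of the same biotypes under the minimum that have a partner, 46.4% of partners reached it and the median was 0.31 and 0.28 TPM. The share of partners that reached the minimum was 100% for the 19 members with 90% or more shared bases and 76.9% (20 of 26) for those with no shared exon base. The part of partner reads in the members' counts was not tested beyond the values above.

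**Figure D3:**
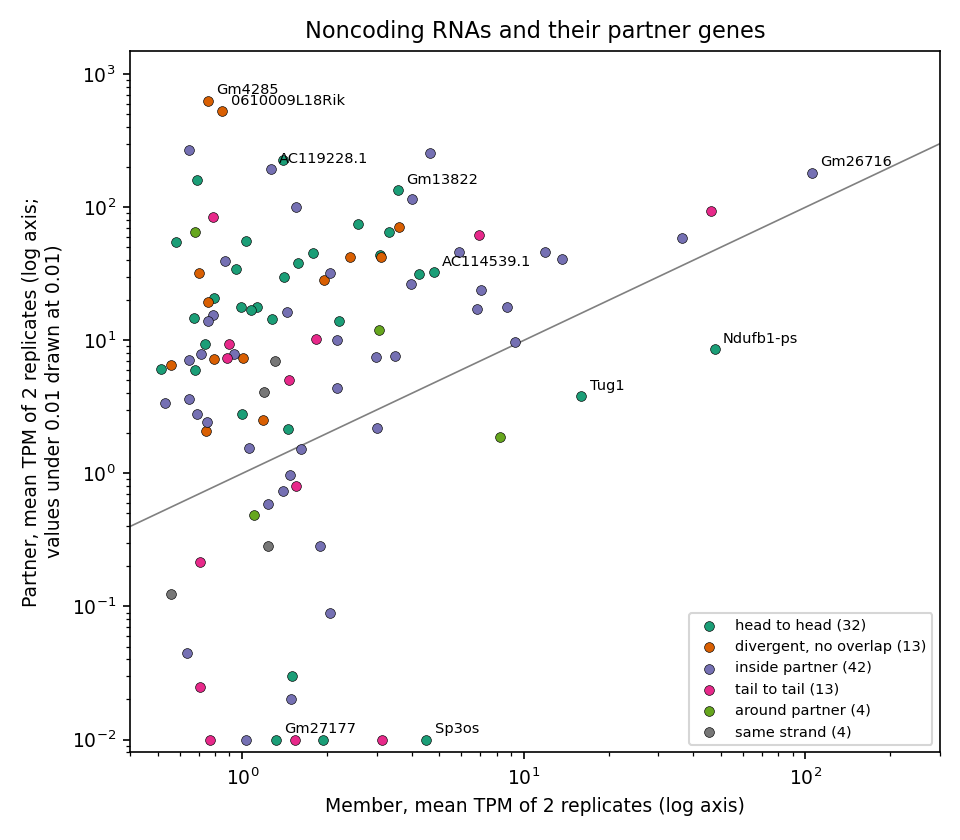
Mean TPM over 2 replicates of each of the 108 members with a partner (horizontal, log axis) against the mean TPM of its partner (vertical, log axis, values under 0.01 drawn at 0.01), coloured by the arrangement of the pair; the line is equality. Points above the line, 81 of them in both libraries, are members below their partner, with Gm4285 and 0610009L18Rik at the top left.

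The clearest arrangement was the divergent pair, in which the genes do not overlap and are read away from each other. All 13 such members were below their partner in both libraries, by a median of -3.91 and -4.13 (-4.02 ± 0.16, SD, n = 2) on the log2(TPM + 0.1) scale, and share no exon base with another gene. Their levels therefore rest on bases of their own, and their posterior standard deviation was 0 in both libraries for 13 of 13. The tables still differed for 2 of the 13 (15.4%), which were at least 2-fold below the median ratio in both libraries. That share was 8.93% of all members and 0.674% of all genes. The partners of this arrangement had a median of 28.9 and 28.2 TPM, the highest of any arrangement, and all 13 reached 0.5 TPM.

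Gm4285 had 0.96 TPM in replicate 1 and 0.55 TPM in replicate 2, against 832 and 436 TPM of Tpt1, an abundant calcium-binding protein linked to growth, whose start lies 129 bases away. 0610009L18Rik had 0.89 and 0.81 TPM, against 552 and 504 TPM of Actg1, cytoplasmic gamma actin, 136 bases away. These were the largest gaps of any pair, -9.50 ± 0.16 and -9.12 ± 0.01 on the log2 scale (SD, n = 2). The members rested on 73 and 34, and on 40 and 29 expected counts. Gm16675 had 1.83 and 2.07 TPM, against 28.9 and 28.2 TPM of Irf2, a transcription factor of the interferon regulatory family, 217 bases away. Gm9776 had 0.78 and 0.62 TPM, against 35.4 and 28.6 TPM of Ap3b1, an adaptor subunit of transport to lysosomes, 37 bases away, and was named after its values were seen because its starts are the closest of the divergent pairs.

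The DNA between the starts of these 4 pairs is printed because it is the sequence that a divergent pair has in common between its starts. The stretches hold no annotated exon of either strand, are read 5′ to 3′ on the member's strand, so that the member begins just after the last base and the partner runs leftward from before the first, and come from the RefSeq promoter table (GRCm38.p6). Capitals mark GC boxes, GGGCGG or its reverse complement CCGCCC. In order they lie at chr14:75844965-75845092 on the minus strand, chr11:120348543-120348677 on the plus strand, chr8:46739516-46739731 on the minus strand and chr13:94358924-94358959 on the minus strand.
Gm4285: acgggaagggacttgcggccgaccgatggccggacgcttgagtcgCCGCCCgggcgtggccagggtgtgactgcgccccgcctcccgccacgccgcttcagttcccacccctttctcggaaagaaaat
0610009L18Rik: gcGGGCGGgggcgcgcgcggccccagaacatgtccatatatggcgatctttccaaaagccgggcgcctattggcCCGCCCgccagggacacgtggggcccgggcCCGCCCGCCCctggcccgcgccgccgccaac
Gm16675: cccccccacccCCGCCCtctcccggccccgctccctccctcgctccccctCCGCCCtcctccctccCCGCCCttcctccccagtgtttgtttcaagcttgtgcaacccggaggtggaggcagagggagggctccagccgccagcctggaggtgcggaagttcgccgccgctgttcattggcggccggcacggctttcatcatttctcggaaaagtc
Gm9776: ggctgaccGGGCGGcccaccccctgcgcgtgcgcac

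The stretches run over 128, 135, 216 and 36 bases, with G and C at 68.8%, 76.3%, 69.0% and 83.3% of bases. They hold 1, 4, 3 and 1 GC boxes, the letters bound by Sp-family factors, and none of the 5 other motifs searched. The search covered both strands and 6 motifs. Of the core promoter it took the TATA box, spelled TATAAA, and the GC box. Of the factors known in macrophages it took the letters of AP-1, spelled TGANTCA, those of the NF-kB family, spelled GGGNNTTCC, those shared by IRF and STAT factors, spelled GAAANNGAA, and those of PU.1, spelled GAGGAAGT. A pair of GC boxes overlap in the 0610009L18Rik stretch, at bases 105 to 110 and 109 to 114.

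RefSeq lists a promoter of 250 bases before to 50 after the start for 49 of the 112 members, and 28 of these starts lie within 50 bases of the GENCODE start. The GC box was in 53.1% of the 49 and in 35.7% of all 32851 promoters in the table, and TATAAA in 4.08% and 13.6%. The NF-kB letters were in 14.3% against 5.82%, the IRF and STAT letters in 22.4% against 8.56%, the AP-1 letters in 10.2% against 7.81% and the PU.1 letters in 6.12% against 3.20%. These are 7, 11, 5 and 3 promoters. Member promoters had a median of 60.0% G and C and 17 CpG, against 52.7% and 7 for all promoters. A match is a run of letters and was not compared with binding.

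The other arrangements differed in how far members lay below their partners. In 32 head to head pairs, which overlap at their 5′ ends, 26 members were below and 6 above, with a median of -3.82 ± 0.11 (SD, n = 2). Inside the partner's span lay 42 members, 31 below, 9 above and 2 on both sides, with a median of -1.65 ± 0.31. Of the 13 tail to tail pairs, which overlap at their 3′ ends, 7 were below and 6 above, at -1.01 ± 0.25. The members with 90% or more shared bases sit mostly inside or tail to tail, and their own median of -1.48 ± 0.27 was nearer to equality than the -2.59 ± 0.33 of members with no shared base.

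**Figure D4:**
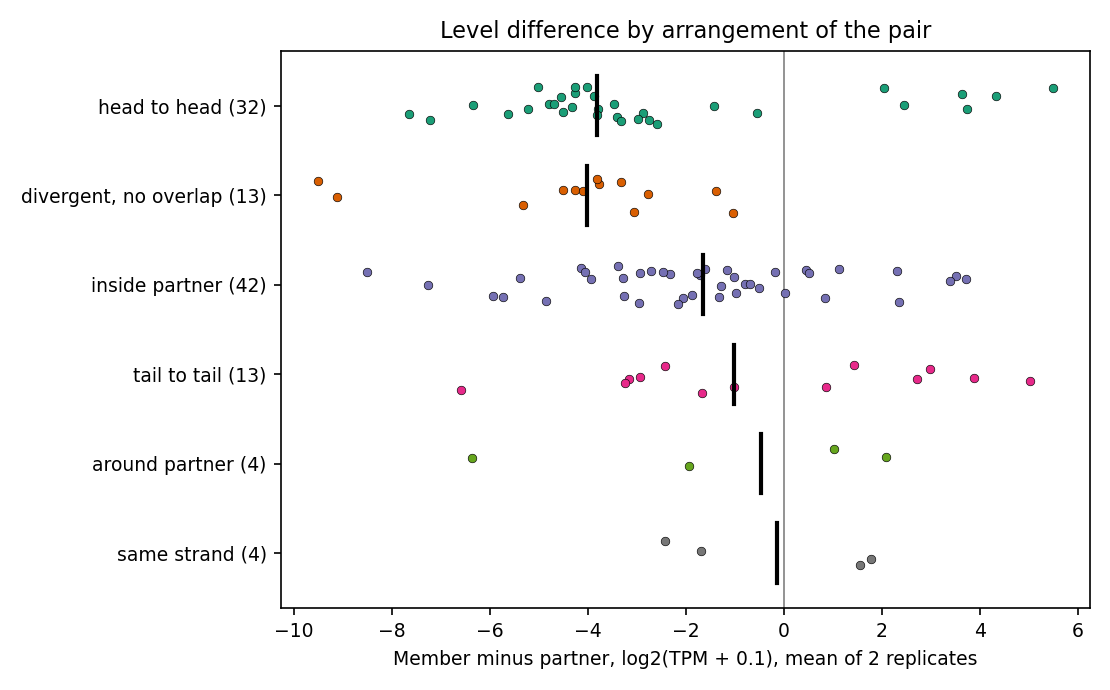
Difference in level, member minus partner, as log2(TPM + 0.1) averaged over 2 replicates, for each of the 108 pairs by arrangement (number of pairs in parentheses); the black bar is the mean of both replicates' medians and the grey line is equality. All 13 divergent pairs lie left of 0, while tail to tail pairs lie on both sides.

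Among bidirectional promoter lncRNAs, 12 of 17 were below their partner in both libraries and 5 above it. Of the 5, 3 overlap the assigned partner tail to tail: 4933412E12Rik, B230354K17Rik and Gm45418, the last pair named after their values were seen. Their starts lie 22852, 41817 and 79022 bases from the start of that partner. These 3 were therefore not compared with a neighbour at their promoter. AC114539.1, the second by level, lies at Nfkb2 and is described with the response genes below. E230013L22Rik had 3.76 and 2.87 TPM, against 68.9 and 60.8 TPM of Rab20, a GTPase of phagosomes. BC051226 had 3.84 and 2.38 TPM, against 41.7 and 43.3 TPM of Daxx, a histone chaperone 97 bases away. In both pairs the member was scarce beside an abundant message. 2310010J17Rik had 2.72 and 2.09 TPM against 46.0 and 39.1 TPM of Picalm, a clathrin adaptor, and rested on 27 and 17 counts. Gm47863 had 1.31 and 0.95 TPM against 23.1 and 12.6 TPM of Jdp2, a repressor of AP-1. 4933412E12Rik and Cep83os instead exceeded the genes assigned to them, which stood at or near 0. Cep83os, at 1.64 and 1.37 TPM, begins 78 bases from Cep83, a centriole protein at 4.62 and 3.81 TPM, and was below that gene.

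A list of 114 genes of the lipid A response, chosen with earlier results of these data known, held the partners of 3 members. AC114539.1 had 5.30 TPM in replicate 1 and 4.26 TPM in replicate 2 (4.78 ± 0.735, SD, n = 2), against 34.1 and 30.7 TPM of Nfkb2, the precursor of the p52 subunit of NF-kB. It overlaps the start of Nfkb2 on chromosome 19, 30.1% of its exon bases are shared, and its posterior standard deviation was 6.84 and 5.23 beside 870 and 510 counts. Gm13822 had 2.92 and 4.22 TPM, against 149 and 121 TPM of Oasl1, an interferon-induced relative of the oligoadenylate synthetases, with the starts 37 bases apart. It rested on 43 and 48 counts with a standard deviation of 0. Gm16712 had 0.65 and 0.92 TPM, against 84.3 and 84.0 TPM of Ebi3, a subunit of the cytokines IL-27 and IL-35, and overlaps the 3′ end of that gene. All 3 members were thus below their partner in both libraries.

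The other 3 of the 5 widest gaps were at AC119228.1, Gm19412 and Gm11131. AC119228.1 had 0.72 and 1.80 TPM, against 199 and 185 TPM of Cd274, the immune checkpoint ligand PD-L1, inside whose span it lies on the other strand. Gm19412 had 0.78 and 0.51 TPM, against 223 and 313 TPM of Tapbp, the tapasin that loads peptides onto MHC class I, and 89.7% of its exon bases are shared. Gm11131 had 0.65 and 0.73 TPM, against 132 and 188 TPM of H2-Q4, a class I gene with near-identical relatives among which reads may be split. All 3 were below their partner in both libraries. Gm37787, named for its own level, had 4.37 and 4.88 TPM, against 287 and 221 TPM of Slamf7, a receptor of the SLAM family.

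The 5 members farthest above their partner stood beside genes at or near 0, so the difference gives the member's level more than a contrast. Sp3os (5.49 ± 0.45 above Gm11084 on the log2 scale), 4933412E12Rik (5.02 ± 0.17 above Gm10271), 9530082P21Rik (4.33 ± 0.23 above Kremen2), Trmt61b (3.88 ± 0.16 above Spdya) and Gm27177 (3.74 ± 0.16 above Loxl2) had partners between 0 and 0.02 TPM. No fold is given against a partner listed at 0. Trmt61b bears the symbol of a tRNA methyltransferase gene, although all its transcripts here carry the antisense biotype. Gm27177 had 1.14 and 1.49 TPM with a posterior standard deviation of 66.9 and 53.8 beside 317 and 319 counts, the largest of any member named here.

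The sense RNAs were few. Peg13, an imprinted RNA read from the paternal allele within Trappc9, had 1.24 and 1.14 TPM in replicates 1 and 2 (1.19 ± 0.0707, SD, n = 2) on 626 and 473 counts, against 3.90 and 4.21 TPM of Trappc9. Gm49733, inside Senp5, had 1.79 and 0.83 TPM on 17 and 6 counts, and Gm44867, inside Plekha7, had 1.47 and 1.00 TPM on 17 and 9 counts. Both rest on so few counts that their levels are loosely measured. The sense overlapping members were Gm20712 at 0.69 and 0.52 TPM and BX649560.1 at 0.54 and 0.58 TPM, the second overlapping the start of Col20a1, a collagen gene on the same strand at 0.13 and 0.12 TPM. Airn, the antisense RNA known to silence Igf2r in cis, had 0.84 and 0.63 TPM in these cytosolic libraries, against 7.18 and 11.4 TPM of Igf2r.

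Between the replicates most members agreed within 2-fold. On the log2(TPM + 0.1) scale the median ratio of replicate 1 over replicate 2 was 0.17 over the members and 0.14 over all genes at the minimum. At least 2-fold higher in replicate 1 were 7 members (6.25%), beside 1.51% of all genes and 4.81% of the 104 lincRNA genes. At least 2-fold higher in replicate 2 was 1 member (0.893%), beside 0.896% of all genes and 6.73% of lincRNA genes. With 1 library on each side there is no test, and in bulk libraries fewer cells with an RNA and less of it per cell cannot be told apart. Of the 7, 4 were members with 90% or more shared bases.

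Those 4 were Gm11175 (19.2 TPM in replicate 1 and 8.06 in replicate 2), Gm17122 (16.6 and 7.25), Gm20463 (13.1 and 5.49) and Gm28959 (2.24 and 0.99). Their ratios of TPM + 0.1, at 2.37, 2.27, 2.36 and 2.15, exceeded those of their partners Jund, Coro1c, Rnf5 and Abhd14b, which had 44.0 and 38.1, 47.4 and 45.1, 10.1 and 9.22, and 1.88 and 1.16 TPM. In the read-based table Gm17122 was at 0 in both libraries and Gm11175 at 0 in replicate 2. Gm20463 had 4.39 TPM in replicate 1 and 0.0668 in replicate 2 there, and Gm28959 0.950 and 0.145, so both were higher in replicate 1 in each table.

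Of members with bases of their own, Gm30329 had 1.44 TPM in replicate 1 and 0.62 in replicate 2, on 461 and 164 counts with a posterior standard deviation of 0. After TMM scaling of library size its count ratio was 2.16, with an exact binomial 95% interval of 1.81 to 2.60 that covers counting error only. The read-based table gave 0.954 and 0.323 TPM, in the same direction. Gm49733 also passed 2-fold, but on 17 and 6 counts, and its interval of 0.821 to 6.76 includes equality. 6330562C20Rik, at the start of the ceramide synthase gene Cers2, had 2.44 and 1.11 TPM on 72 and 30 counts and completes the 7, named after its values were seen.

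AC119228.1, opposite Cd274, was the member higher in replicate 2: 0.72 TPM in replicate 1 and 1.80 in replicate 2, on 324 and 650 counts. Its count ratio of replicate 1 over replicate 2 was 0.384 (interval 0.335 to 0.439), and the read-based table gave 0.530 and 0.980 TPM. Cd274 itself had 199 and 185 TPM. Like Malat1 and Neat1 it was higher in replicate 2, while its partner was not; the part of nuclear RNA in it was not tested. Airn, a member also known as nuclear, had 0.84 and 0.63 TPM and was lower in replicate 2. It rested on 80 and 47 counts, and its interval of 0.903 to 1.92 includes equality. The next members toward replicate 2 were Gm43079 (1.35 TPM in replicate 1 and 2.23 in replicate 2), Adap2os (0.67 and 1.06), Gm13822 (2.92 and 4.22) and Gm48512 (2.48 and 3.50), all under 2-fold. In the read-based table Gm43079 (1.02 and 1.13) and Adap2os (3.95 and 4.03) were also higher in replicate 2. Gm13822 (4.71 and 3.38) and Gm48512 (0.216 and 0) were lower in replicate 2 there. Kif3c, whose exons hold all exon bases of Gm48512, had 5.85 and 9.22 TPM in the gene tables.

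Near the minimum, the choice of members turns on small differences. Just inside it were Gm44672 (0.52 TPM in replicate 1 and 0.51 in replicate 2), Gm13375 (0.62 and 0.50) and Gm19412 (0.78 and 0.51). Just outside were A230020J21Rik (0.51 and 0.49), Gm28529 (0.78 and 0.49) and 4930539J05Rik (0.81 and 0.48).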

How the data were processed

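Total RNA of the cytosolic fraction was measured in 2 libraries of 1 group. Per the deposited text the assembly is mm10 and the annotation GENCODE M21; which aligner and quantifiers made the tables, and whether strand was kept, is not stated in the labels or headers. The authors deposited expected counts and TPM per gene with the posterior standard deviation of each count, percent values of each transcript's part of its gene, and, in a second table made from the reads, estimated counts and TPM per transcript, which were summed per gene here. TPM and estimated counts were used as deposited; expected counts were rounded to whole numbers for the TMM factors.

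Members and lists were chosen with earlier results of these data known. The symbols that the rule leaves out would have added 0 genes. Ratios and differences use log2(TPM + 0.1). Exons were merged per gene, and a shared base lies in an exon of another gene on either strand. Named members are the 20 highest, the 5 largest ratios each way, the 5 largest differences from a partner each way, members at the lipid A list, the 10 highest bidirectional, the 3 highest of each sense class and the 3 nearest the minimum on each side. Of these, 1 is not reported here. With 1 group there is no test; alternatives were other minimums, pseudocounts, scalings, the read-based table and leaving out each library. Replicate 1 is the deeper library (64187219 and 49429864 rounded counts), so its counting error is smaller. Scripts were tested on simulated data. R 4.3.3, edgeR 4.0.16 (TMM alone), Python 3.11.15, pandas 2.3.3 and scipy 1.17.1 were used.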

Additional observations from a re-analysis of the deposited data

How the results depend on the processing

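The number of members and their median level follow the minimum. A TPM minimum of 1 gave 64 members with a median of 2.55 TPM, a minimum of 0.25 gave 194 with 0.738, TPM rescaled to protein-coding genes gave 277 with 1.73, and an expected count of at least 10 with no TPM minimum gave 304 with 0.410. Rescaling raises every TPM, because protein-coding genes hold only part of the total, and so acts as a lower minimum. Chosen by the read-based table instead, there were 84 members with a median of 1.21 TPM. Leaving out a library gave 127 to 150 members and a median of 1.11 to 1.15 TPM.

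Members above their partner in both libraries numbered 25 of 108, and 7 of 26 among members that share no exon base. They numbered 41 at the minimum of 0.25, 18 at the minimum of 1, 54 with rescaled TPM and 53 with the count minimum. By the read-based table they numbered 26, and without a library 28 to 37 were above in the other. The number of members also changed with these settings, as given above. The median difference of -2.65 became -1.65 at the minimum of 1, -3.31 with rescaled TPM, -3.39 with the count minimum, -2.09 with a pseudocount of 1 and -2.02 for the members chosen and measured by the read-based table, and stayed negative in every alternative run; without a library it was -2.80 to -2.57. Members at least 2-fold apart between libraries numbered 8 of 112. They numbered 14 of 194 at the minimum of 0.25 and 4 of 64 at the minimum of 1. With rescaled TPM they numbered 21 of 277, and with the count minimum 15 of 304. A pseudocount of 1 gave 3 of 112. The limit of 90% shared bases and its alternatives were chosen after seeing the data: 20 members passed it, 17 at 100% and 27 at 50%. Those above the median ratio of the tables numbered 14, 11 at 4-fold and 14 to 16 without a library. Members under about 20 counts are loosely measured. No paired analysis was possible because there is 1 group.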
